A study of Mus musculus with 64 samples.

Results

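The genes described here take up fatty acids, free them from stored triglyceride, activate them and oxidise them in the heart. They form a list of 33 genes, chosen by name for their place in the pathway, though with earlier results of these data known. All 33 were among the 16913 genes of the deposited table. They were followed in hearts of C57BL/6J mice, either carrying a transgene for mutant troponin T, cTnT-delta160E (TG), a model of hypertrophic cardiomyopathy, or without it (nTG). Trained mice ran on a treadmill for 6 weeks of high-intensity interval training (HIIT), in 3 weekly sessions of 31 minutes with 4 intervals each at 85% and 50% of the average speed their group reached in a graded test, while sedentary mice did not exercise. Of nTG mice there were 7 sedentary and 8 trained males and 8 sedentary and 10 trained females. Of TG mice there were 9 sedentary and 8 trained males and 8 sedentary and 6 trained females. The promoter that drives the transgene, the age of the mice and the part of the heart taken are not given in the sources used here.

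The resting heart draws most of its energy from long-chain fatty acids. Lipoprotein lipase frees them from lipoproteins at the capillary wall, CD36 and other carriers bring them into the cardiomyocyte, and an acyl-CoA synthetase links them to coenzyme A. The carnitine shuttle moves the acyl group into the mitochondrion, where each turn of β-oxidation runs through an acyl-CoA dehydrogenase, a hydratase, a hydroxyacyl-CoA dehydrogenase and a thiolase, and electrons of the acyl-CoA dehydrogenases pass through the electron transfer flavoprotein to ubiquinone. Lower expression of this pathway is a well-known feature of hypertrophied and failing hearts.

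Columns of the gene table do not follow their names. Gene columns were therefore matched to the labelled lncRNA columns by their highest correlation over 389 autosomal transcripts found in both tables. All 64 pairs were each other's best match, with r from 0.599 to 0.863 where the next best column reached at most 0.404, and 1 pair had the same name. With columns joined this way, 0 of 64 libraries contradicted their labelled sex or genotype. Tnnt2, which the transgene adds to, ran from 2665 to 3428 CPM (counts per 1000000 counts of the library) in nTG hearts. In TG hearts it ran from 6903 to 12001 CPM. These Tnnt2 values use plain library totals, while the levels below are TMM-scaled CPM. With columns taken by name, 45 of 64 contradicted one or the other. Every result below rests on the joined columns, and with columns by name 0 of the 33 genes were called in any of the 15 comparisons by edgeR. Gene totals ran from 34.6 to 67.1 M counts per library (M, 1000000 counts; median 48.0 M), and the lowest count of any of the 33 genes in a library was 314, for Ehhadh. The 10 cardiomyocyte markers listed summed to between 101089 and 135613 CPM in every library.

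Promoter sequences of the 4 genes with the smallest p for genotype are shown first, since these genes fell together. They are Acadm, the medium-chain acyl-CoA dehydrogenase, Etfdh, which hands electrons from the flavoprotein to ubiquinone, Echs1, the short-chain enoyl-CoA hydratase, and Hadha, the α subunit of the mitochondrial trifunctional protein. Each sequence gives the 250 bases before the RefSeq start (GRCm38.p6), 5′ to 3′ on the gene's own strand, which is the minus strand for all 4. The windows are chr3:153944644-153944893 for Acadm, chr3:79628768-79629017 for Etfdh, chr7:140116422-140116671 for Echs1 and chr5:30154981-30155230 for Hadha. RefSeq starts differ from the M21 gene ends given below, so that the Etfdh window lies wholly inside the M21 gene and those of Echs1 and Hadha partly. Capitals mark the core motif of nuclear receptors, AGGTCA, or its reverse complement, which these windows hold in Acadm and Echs1 and not in Etfdh or Hadha.
Acadm: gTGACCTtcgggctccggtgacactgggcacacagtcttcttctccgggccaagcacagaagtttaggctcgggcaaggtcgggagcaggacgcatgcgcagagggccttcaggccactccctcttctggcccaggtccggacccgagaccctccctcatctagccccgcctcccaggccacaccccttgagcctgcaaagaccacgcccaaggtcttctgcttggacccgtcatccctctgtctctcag
Etfdh: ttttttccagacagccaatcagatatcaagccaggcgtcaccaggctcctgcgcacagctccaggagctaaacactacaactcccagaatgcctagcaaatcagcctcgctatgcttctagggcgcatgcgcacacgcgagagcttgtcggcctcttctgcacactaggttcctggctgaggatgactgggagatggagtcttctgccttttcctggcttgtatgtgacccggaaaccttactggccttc
Echs1: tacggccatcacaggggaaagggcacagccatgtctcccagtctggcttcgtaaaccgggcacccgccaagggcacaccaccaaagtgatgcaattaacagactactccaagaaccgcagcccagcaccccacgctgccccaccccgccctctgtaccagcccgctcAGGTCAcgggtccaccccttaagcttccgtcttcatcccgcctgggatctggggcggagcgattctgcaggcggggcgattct
Hadha: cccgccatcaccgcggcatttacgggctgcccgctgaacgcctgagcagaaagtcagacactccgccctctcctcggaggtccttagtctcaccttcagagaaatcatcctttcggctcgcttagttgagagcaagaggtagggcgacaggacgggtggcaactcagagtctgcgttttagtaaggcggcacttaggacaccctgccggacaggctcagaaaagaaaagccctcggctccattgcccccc

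RefSeq promoters of 300 bases, from 250 before to 50 after the start, were matched for 26 of the 33 genes (30 promoters). Cpt1b, Lpl, Acot13, Crat, Decr1, Acaa2 and Acat1 had no entry. AGGTCA, searched on both strands, occurred in 5 of the 26 genes (Acadm, Cd36, Acacb, Echs1 and Acadvl). By promoter this was 5 of 30, near the share of 16.3% over all 32851 promoters. These matches describe letters in a window and nothing more.

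Per kilobase of the principal transcript, Fabp3, the heart fatty acid binding protein that carries fatty acids through the cytosol, had the highest level, with a mean of 2093 CPM per kb (1624 to 2573 over the 64 libraries). Lpl, lipoprotein lipase, came next at 963 CPM per kb (719 to 1228), and Ech1, an auxiliary isomerase for unsaturated fatty acids, followed at 523 CPM per kb (313 to 680.3). The ranges of Fabp3 and Lpl did not meet. Those of Ech1 and the next genes did, Hadhb at 412 CPM per kb (291 to 525) and Acadvl at 406 CPM per kb (288 to 498). At the lower end stood Eci2, another enoyl-CoA isomerase, at 47.0 CPM per kb (37.4 to 55.7), Lipe, hormone-sensitive lipase, at 15.4 (10.8 to 22.0), and Ehhadh, the peroxisomal bifunctional enzyme, at 3.39 (2.39 to 4.83). The ranges of these 3 did not meet.

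In TG hearts, 31 of the 33 genes were lower than in nTG hearts in the mean over the 4 strata (sedentary and trained, male and female), and 0 were higher. A gene was called at a Benjamini-Hochberg adjusted p under 0.05 over all 16913 genes (edgeR's quasi-likelihood test), and by this rule 20.5% of all genes were lower. The falls were small, with a median of -0.19 on the log2 scale over the 33 genes, against 0.01 over all genes. Ehhadh had the most negative estimate and fell by 0.34 ± 0.05 (SE), followed by Acadm, Ech1 and Etfdh. The 2 genes without a call were Acadl, the long-chain acyl-CoA dehydrogenase, at -0.07 ± 0.03 (adjusted p = 0.058), and Cpt2, the inner-membrane carnitine palmitoyltransferase, at -0.04 ± 0.03 (adjusted p = 0.30, 95% interval -0.10 to 0.02). These p-values set the difference between group means against the spread between the mice of these groups.

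**Figure D1:**
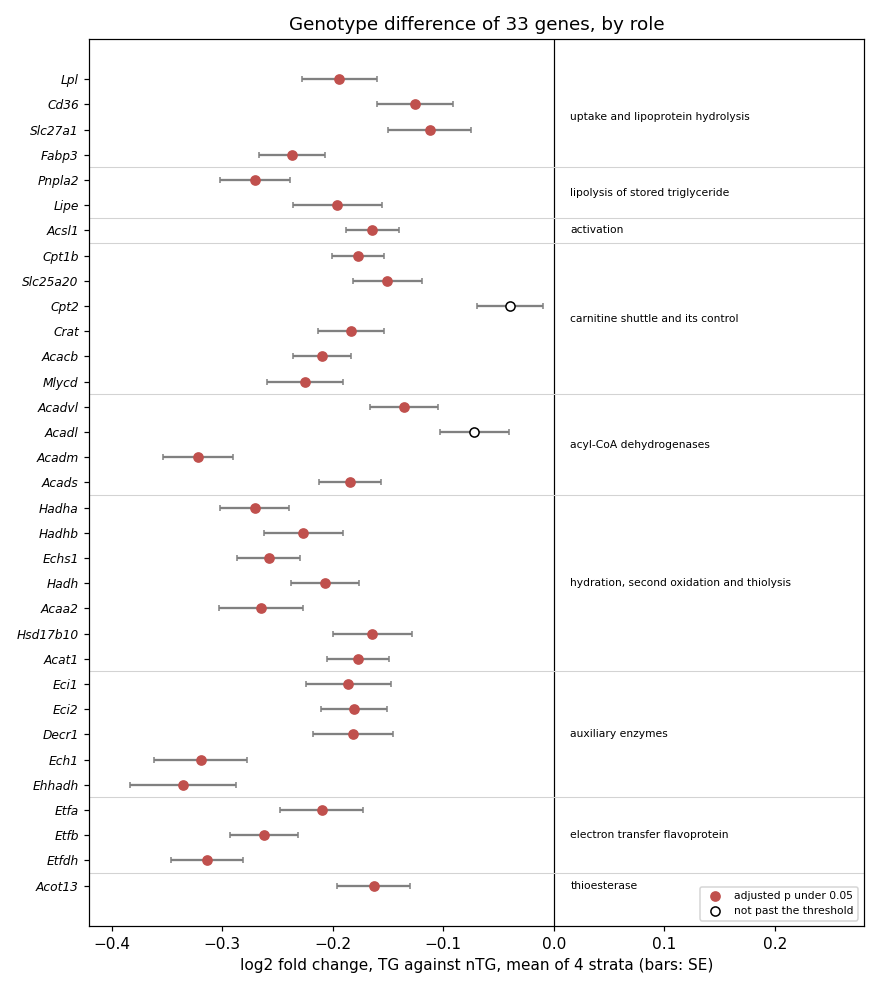
Log2 fold change of TG against nTG hearts (mean of the 4 strata, x axis; bars, SE) for the 33 genes ordered by role. Filled points passed an adjusted p under 0.05; all 33 estimates lie below 0, and the 2 open points are Cpt2 and Acadl.

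The count differed between strata. Among sedentary males 29 of 33 were lower in TG (11.2% of all genes were), among trained males 13 (8.31% of all), among sedentary females 4 (2.78%) and among trained females 28 (9.43%). In none of the 4 was a member called higher. The medians over the 33 genes were -0.26, -0.16, -0.11 and -0.26 in that order. The differences between strata themselves were tested as interactions, and by edgeR 0 of 33 (0% of all genes) passed for genotype by training in males (15 at an unadjusted p under 0.05, 0 by DESeq2, 3 by limma voom), genotype by training in females (6, 0 and 0), genotype by sex in sedentary mice (15, 0 and 0) and genotype by sex in trained mice (3, 0 and 0). The sedentary female count was 1 without nTG sedentary female replicate 7 or 8, 2 without nTG replicate 3 or TG replicate 8, and 7 without nTG replicate 4. It was 10 by limma voom and 1 with these groups fitted alone. No other genotype count moved by over 1.5 times when any 1 library was left out. Scaling to plain library totals called 26, 8, 7 and 20 members lower in these strata and 30 in the mean.

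**Figure D2:**
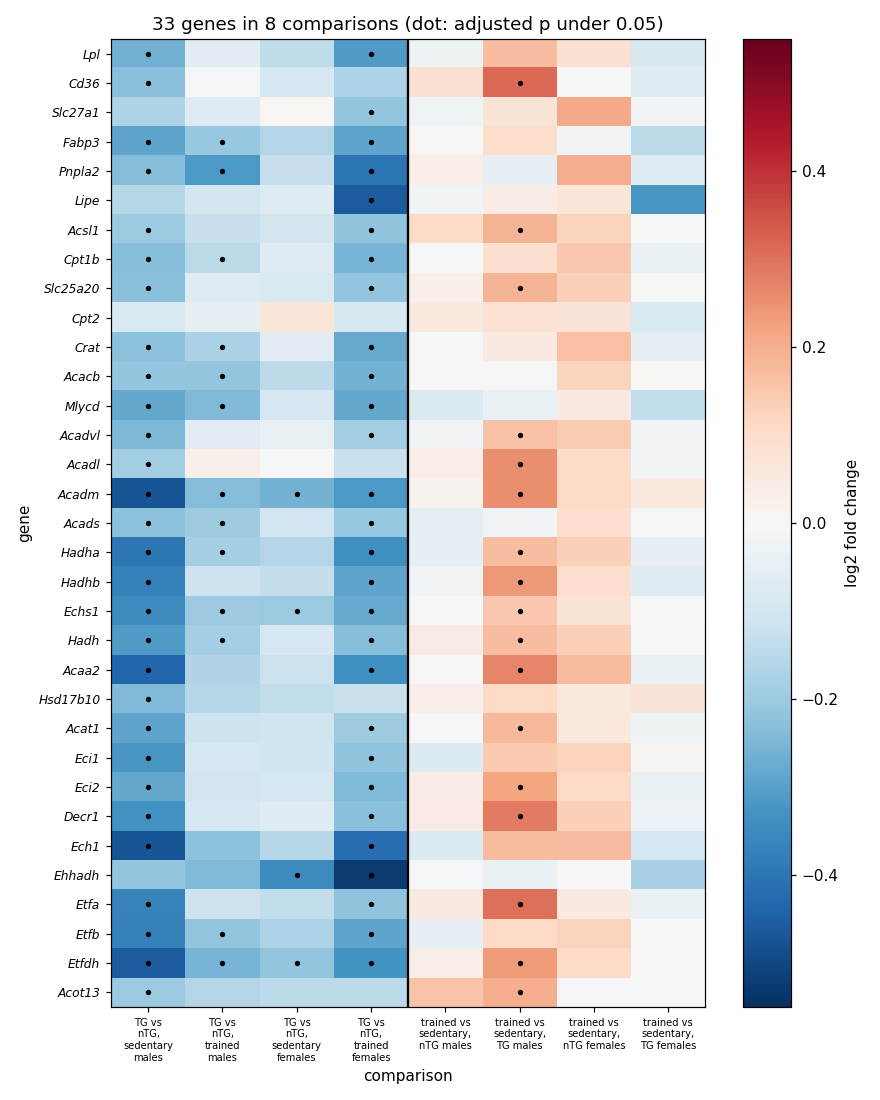
Log2 fold change (colour; blue lower, red higher) of the 33 genes (rows) in the 4 genotype comparisons (left) and the 4 training comparisons (right). Dots mark an adjusted p under 0.05: 29, 13, 4 and 28 lower in the genotype columns, and 17 higher in trained TG males.

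Acadm opens the oxidation of medium-chain fatty acids and lies at chr3:153922357-153944632 (GRCm38, GENCODE M21, minus strand). In males its lowest, median and highest libraries were 830.1, 925 and 991 CPM in sedentary nTG and 581, 650.5 and 803 in sedentary TG hearts. In trained males they were 901, 935 and 1029 in nTG and 554, 836 and 869 in TG hearts. No TG library reached the lowest nTG library in either male stratum. In females the values were 646, 794 and 863 in sedentary nTG, 599, 636 and 742 in sedentary TG, 744, 831 and 926 in trained nTG, and 626, 673 and 727 in trained TG hearts. Sedentary females overlapped, while trained females did not. Acadm was called in all 4 strata, and in their mean it was 0.80-fold (-0.32 ± 0.03 log2, adjusted p = 1.08e-12, edgeR).

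Etfdh, at chr3:79603788-79629500 on the minus strand, ran from 336 through a median of 373 to 424 CPM in sedentary nTG males and from 233 through 283 to 323 in sedentary TG males, without overlap. Trained females did not overlap either, at 328, 368 and 427 CPM in nTG and 261, 299.9 and 323 in TG. Trained males overlapped by their lower nTG and upper TG libraries (363, 389 and 428 against 243, 338 and 368 CPM). Sedentary females overlapped as well (288, 346 and 385 against 274, 293 and 344 CPM). The mean over the strata was -0.31 ± 0.03 (adjusted p = 6.05e-12, edgeR), and all 4 strata were called.

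Echs1 (chr7:140105710-140116476, minus strand) ran at 162, 189 and 198 CPM in sedentary nTG males and at 131, 143 and 167 in sedentary TG males, so that the groups just overlapped. Trained males stood at 175, 183 and 204 CPM in nTG and 122, 163 and 176 in TG. In females, sedentary hearts had 138, 175 and 182 CPM in nTG and 125, 147 and 157 in TG. Only in trained females were all TG libraries (134, 145 and 158 CPM) below all nTG libraries (167, 175 and 187 CPM). Echs1 fell in each stratum and by 0.26 ± 0.03 in the mean (adjusted p = 3.92e-11, edgeR).

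Hadha catalyses the hydratase and dehydrogenase steps for long chains and lies at chr5:30118304-30155162 on the minus strand. Sedentary males had 1390, 1514 and 1611 CPM in nTG and 961, 1122 and 1360 in TG hearts, without overlap. Trained females had 1274, 1483 and 1666 CPM in nTG and 1070, 1162 and 1265 in TG hearts, again without overlap. Trained males (1367, 1466 and 1621 against 899, 1328 and 1421 CPM) and sedentary females (1186, 1333 and 1534 against 1140, 1181 and 1343 CPM) overlapped. The mean difference was -0.27 ± 0.03 (adjusted p = 1.59e-10, edgeR), and sedentary females were the stratum without a call (adjusted p = 0.131).

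**Figure D3:**
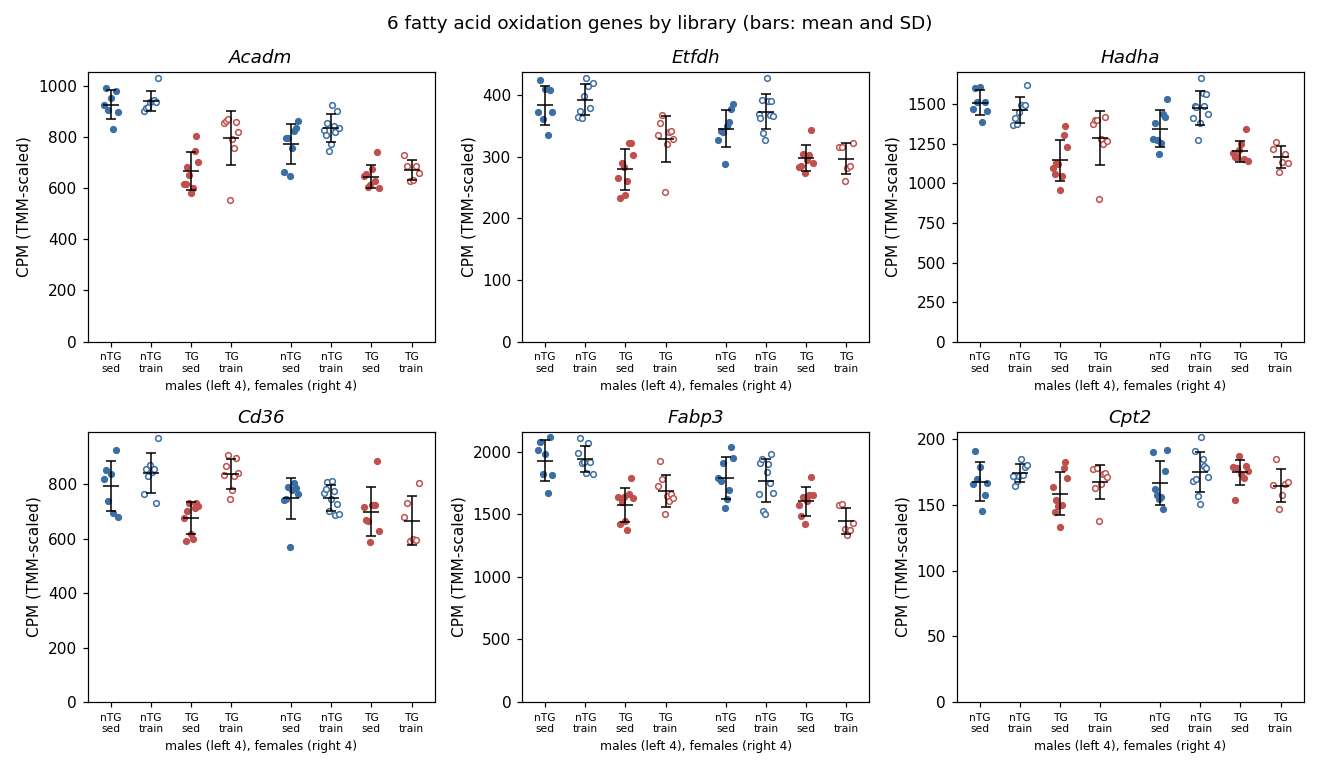
CPM (TMM-scaled, y axis from 0) of 6 genes in each library, by group (x axis; blue nTG, red TG, filled sedentary, open trained; bars, mean and SD). Acadm, Etfdh, Hadha and Fabp3 sit lower in TG groups, Cd36 is below the trained TG males in every sedentary TG male, and Cpt2 lies between 134 and 202 CPM in all 8 groups; the open red point far below its group in Acadm, Etfdh and Hadha is TG trained male replicate 4.

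Beyond single groups, every TG library lay below every nTG library for 6 members in sedentary males (Acadm, Hadha, Hadh, Acaa2, Etfb and Etfdh), where 1.3% of all genes did so. The number was 1 in trained males (Acadm; 1.29% of all genes), 0 in sedentary females (0.284%) and 8 in trained females (Cpt1b, Acacb, Acadm, Hadha, Echs1, Acaa2, Ech1 and Etfdh; 2.04%).

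All 4 genes of uptake fell in the mean over strata. Fabp3 fell by 0.24 ± 0.03 and Lpl by 0.19 ± 0.03. Cd36, the main fatty acid translocase, fell by 0.13 ± 0.03, and Slc27a1, a fatty acid transport protein, by 0.11 ± 0.04 (adjusted p = 0.0133, edgeR). Fabp3 stood at 1668, 1979 and 2118 CPM in sedentary nTG males and at 1375, 1632 and 1792 in sedentary TG males. In trained females it stood at 1502, 1796 and 1983 CPM in nTG and at 1337, 1405 and 1578 in TG. The groups overlapped in both. Sedentary females (1552, 1778 and 2040 against 1423, 1620.2 and 1797 CPM) overlapped too and were not called (-0.16 ± 0.06, adjusted p = 0.116), while trained males (1819, 1917 and 2112 against 1499, 1654 and 1929 CPM) were called.

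Lpl ran at 3470, 4040.4 and 5053 CPM in sedentary nTG males against 2958, 3485 and 3885 in sedentary TG males. In trained females the values were 3622, 4416 and 4793 against 3268, 3486 and 3986 CPM. Lpl was called in these strata (-0.26 ± 0.07 and -0.31 ± 0.07), although single libraries of the groups overlapped. Trained males (3776, 4154 and 4348 against 3164, 3894 and 4679 CPM) and sedentary females (3441, 4139.9 and 4676 against 3348, 3494 and 4531 CPM) overlapped widely and were not called.

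Both lipases of stored triglyceride fell in the mean. Pnpla2, adipose triglyceride lipase, which takes the first acyl chain off the droplet, fell by 0.27 ± 0.03 and was the member with the smallest p in trained males (-0.32 ± 0.06, adjusted p = 2.52e-04, edgeR) and in trained females (-0.40 ± 0.07, adjusted p = 1.47e-05). Lipe was called in trained females (-0.46 ± 0.08) and in the mean (-0.20 ± 0.04). Its trained female libraries ran at 47.1, 59.8 and 79.5 CPM in nTG and 40.6, 46.0 and 53.4 in TG hearts. In the other 3 strata it was not called, with 52.3, 53.8 and 69.5 CPM in sedentary nTG and 39.2, 50.5 and 60.7 in sedentary TG males, 47.3, 57.2 and 61.3 against 44.4, 51.1 and 59.2 in trained males, and 51.1, 60.6 and 64.9 against 46.5, 58.3 and 66.97 in sedentary females. Lipe, Pnpla2, Lpl and Cd36 are also expressed by fat cells. The 4 adipocyte markers analysed summed to 80.0 to 147 CPM per library and 0 of 4 were called in the mean by edgeR (0 at an unadjusted p under 0.05, median 0.40 on the log2 scale). By stratum the medians were 1.29 in sedentary males, where Cfd was called higher and 2 of 4 had an unadjusted p under 0.05, and 0.53 for males after training. For females they were 0.03 (sedentary) and -0.39 (trained). The part of fat cells was not tested. Adipoq, Lep, Retn and Adrb3 were not analysed here.

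Activation and the carnitine shuttle fell as well, apart from Cpt2. Acsl1, the main long-chain acyl-CoA synthetase of the heart, fell by 0.16 ± 0.02. Cpt1b, the muscle carnitine palmitoyltransferase of the outer membrane, fell by 0.18 ± 0.02, Slc25a20, the carnitine-acylcarnitine translocase, by 0.15 ± 0.03, and Crat, carnitine acetyltransferase, by 0.18 ± 0.03. Acacb, which makes the malonyl-CoA that inhibits CPT1, fell by 0.21 ± 0.03, and Mlycd, which removes malonyl-CoA, by 0.23 ± 0.03. The genes for the enzymes that make and that degrade this inhibitor were thus both lower, and both were called in the same 3 strata, all but sedentary females. Cpt2 ranged from 134 to 191 CPM in sedentary males of both genotypes and was called in none of the strata.

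Of the 4 acyl-CoA dehydrogenases, which differ in the chain length they prefer, Acadm fell most by estimate. Acads, for short chains, fell by 0.18 ± 0.03 and Acadvl, for very long chains, by 0.14 ± 0.03, while Acadl was called in sedentary males alone (-0.19 ± 0.06, adjusted p = 0.0192, edgeR). Acadl stood at 625.3, 699 and 757 CPM in sedentary nTG males and at 525, 603 and 704 in sedentary TG males. In trained males (631, 719.5 and 797 against 561, 742 and 836 CPM) and sedentary females (542, 657 and 727 against 585, 626 and 785) the genotypes overlapped over most of their range. In trained females (617, 696 and 779.8 against 576, 645 and 692) they overlapped in part, with 6 of 6 TG libraries below the nTG median and 2 below every nTG library, and the test was not passed.

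All 7 genes of hydration, second oxidation and thiolysis fell in the mean. Next to Hadha and Echs1, these were Hadhb, the thiolase subunit of the trifunctional protein (by 0.23 ± 0.04), Hadh, the short-chain hydroxyacyl-CoA dehydrogenase (by 0.21 ± 0.03), Acaa2, the mitochondrial thiolase (by 0.26 ± 0.04), Hsd17b10, another hydroxyacyl-CoA dehydrogenase (by 0.16 ± 0.04), and Acat1, the acetoacetyl-CoA thiolase (by 0.18 ± 0.03). In sedentary females only Echs1 of the 7 was called. In trained females Hsd17b10 was the one without a call (-0.12 ± 0.07, adjusted p = 0.274, edgeR).

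The 5 auxiliary enzymes, which handle double bonds or work in peroxisomes, fell too. Ech1 fell by 0.32 ± 0.04, with 687, 782 and 859 CPM in sedentary nTG against 466.4, 533 and 707 in sedentary TG males, and with 625.3, 743 and 862 against 519, 557 and 596 in trained females, the latter without overlap. Ech1 was not called in trained males (647, 740.5 and 855 against 396, 624 and 792 CPM) or sedentary females (566, 663 and 762 against 548, 593 and 679 CPM). The isomerases Eci1 and Eci2 and the dienoyl-CoA reductase Decr1 fell by 0.19 ± 0.04, 0.18 ± 0.03 and 0.18 ± 0.04. Eci2 stood at 76.7, 85.4 and 96.6 CPM in sedentary nTG and at 65.3, 71.1 and 81.6 in sedentary TG males, with overlap at the edges. Trained males stood at 81.6, 89.7 and 95.2 CPM in nTG and at 65.5, 85.5 and 91.4 in TG, and sedentary females at 65.4, 85.1 and 88.5 against 65.7, 77.1 and 88.0, neither called. Trained females, where Eci2 was called, stood at 78.4, 90.6 and 97.2 CPM in nTG and at 68.9, 73.9 and 84.7 in TG, with overlap.

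Ehhadh, the member with the lowest level, was called in both female strata and in neither male stratum. Its females stood at 9.27, 10.3 and 14.4 CPM in sedentary nTG, 7.93, 8.63 and 10.9 in sedentary TG, 7.61, 10.9 and 13.8 in trained nTG, and 7.14, 7.84 and 8.58 in trained TG hearts. The estimates were -0.35 ± 0.09 (adjusted p = 0.0177, edgeR) and -0.53 ± 0.10 (adjusted p = 1.40e-04). Males stood at 9.56, 11.1 and 14.2 CPM in sedentary nTG against 7.35, 9.83 and 11.2 in sedentary TG, and at 9.76, 10.7 and 13.1 in trained nTG against 7.46, 9.58 and 10.9 in trained TG hearts, with estimates of -0.22 ± 0.09 and -0.24 ± 0.09 (adjusted p = 0.093 and 0.0723). Overlap was seen in each of the 4 strata, and the genotype by sex terms for Ehhadh did not pass.

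The 3 genes of the electron transfer flavoprotein and its oxidoreductase fell, Etfdh most by estimate, then Etfb (by 0.26 ± 0.03) and Etfa (by 0.21 ± 0.04). Etfb was called in all strata but sedentary females, and Etfa in sedentary males and trained females. Acot13, a thioesterase that releases the free acid again, fell by 0.16 ± 0.03 in the mean and was called in sedentary males alone among the strata.

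Of the 33 genes, 16 overlap another annotated gene, and whether counting used strand is not given in the sources used here. Protein-coding partners on the opposite strand were Garem2 for Hadha, Paox for Echs1, 4930579G24Rik for Etfdh, Dvl2 for Acadvl, Dolpp1 for Crat, and Zcchc17 and Gm10570 for Fabp3. On the same strand, Gm44502 overlaps Cpt1b and Gm45233 overlaps Etfb. Counts of these members are uncertain to that degree.

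Markers of other cells moved with genotype. Of 6 fibroblast markers 6 were higher in TG in the mean (median 0.37 on the log2 scale), as were 6 of 6 macrophage markers (median 0.42), while 8 of 10 cardiomyocyte markers were lower (median -0.16) and 1, Ttn, was higher. By stratum (males sedentary and trained, then females sedentary and trained), 6, 4, 0 and 5 of 6 macrophage markers were higher, 6, 3, 1 and 3 of 6 fibroblast markers were higher, and 6, 3, 1 and 5 of 10 cardiomyocyte markers were lower, beside 29, 13, 4 and 28 of the 33 genes. Of the macrophage markers in sedentary females, edgeR put 1 at an unadjusted p under 0.05. Summed cardiomyocyte markers had medians of 115345 CPM in nTG and 109388 in TG sedentary males, and 116316 and 118768 in trained males. In females they were 110635 and 113562 (sedentary) and 115362 and 117307 (trained). The median sum was thus lower in TG in sedentary males alone. Endothelial markers were near level, with 1 of 8 lower and median -0.03, while 1 of 5 smooth muscle and pericyte markers was higher (median -0.04) and Cidea, the brown fat marker analysed, was lower (-0.21). In the mean 3 of 6 blood markers were lower (median -0.36), but the strata went opposite ways, with 1 of 6 higher and 0 lower in sedentary males (median 0.63) and 5 of 6 lower in trained males (median -1.22). Of 4 atrial markers 1, Nppa, was higher in the mean (median -0.11). By stratum edgeR called 0 of 4, with medians of -1.16 and 0.29 in sedentary and trained males, and 0.51 and -0.07 in sedentary and trained females. The median atrial sum went the other way in sedentary males (90.9 CPM in nTG, 214 in TG), trained males (126 and 114) and trained females (70.0 and 135). It went the same way in sedentary females (73.6 and 161), so the sum does not stand for all 4 markers. Summed fibroblast markers were 608 to 813 CPM in sedentary nTG and 678 to 1165 in sedentary TG males, 523 to 714 and 656 to 1434 in trained males, 721 to 1180.1 and 852 to 1111 in sedentary females, and 607 to 801 and 821 to 1031 in trained females. Summed macrophage markers were 139 to 186 and 182 to 314, 128 to 178 and 176 to 311, 169 to 255 and 173 to 261, and 151 to 211 and 195 to 295 CPM in the same order. Summed blood markers were 440 to 1090.1 and 291 to 4626, 573 to 1114 and 260 to 555, 403 to 725 and 316 to 1176, and 577 to 801 and 344 to 611 CPM. Ahsp was not analysed here. Summed atrial markers were 29.8 to 601 and 35.2 to 315, 41.6 to 262 and 53.2 to 682, 20.2 to 265 and 50.8 to 317, and 36.6 to 224 and 87.8 to 241 CPM. The library with the highest atrial sum of its group had the lowest sum of the 33 genes in some groups. These were TG trained males (replicate 4), nTG sedentary males (replicate 5), nTG sedentary females (replicate 4) and TG sedentary females (replicate 8). No other group matched. Highest fibroblast sums met lowest sums of the 33 genes in both groups of sedentary males, TG trained males and both groups of nTG females. Highest macrophage sums did so in both groups of sedentary males and TG trained males. The library with the lowest atrial sum had the highest sum of the 33 genes in some groups too. These were TG sedentary males, both groups of trained males and TG sedentary females, and no others. For the lowest macrophage sum this held in nTG trained males, TG sedentary males and both groups of sedentary females. For the lowest fibroblast sum it held in TG trained males and both groups of sedentary females. For genotype by sex in sedentary mice, edgeR called 0 of 6 macrophage markers (6 at an unadjusted p under 0.05, median -0.55). It called 0 of 6 blood markers there (2 at that level, median -0.88). The part of these markers in the fall of the fatty acid genes, or in that term, was not tested. In bulk tissue, fewer cells of a type and less RNA per cell cannot be told apart.

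**Figure D4:**
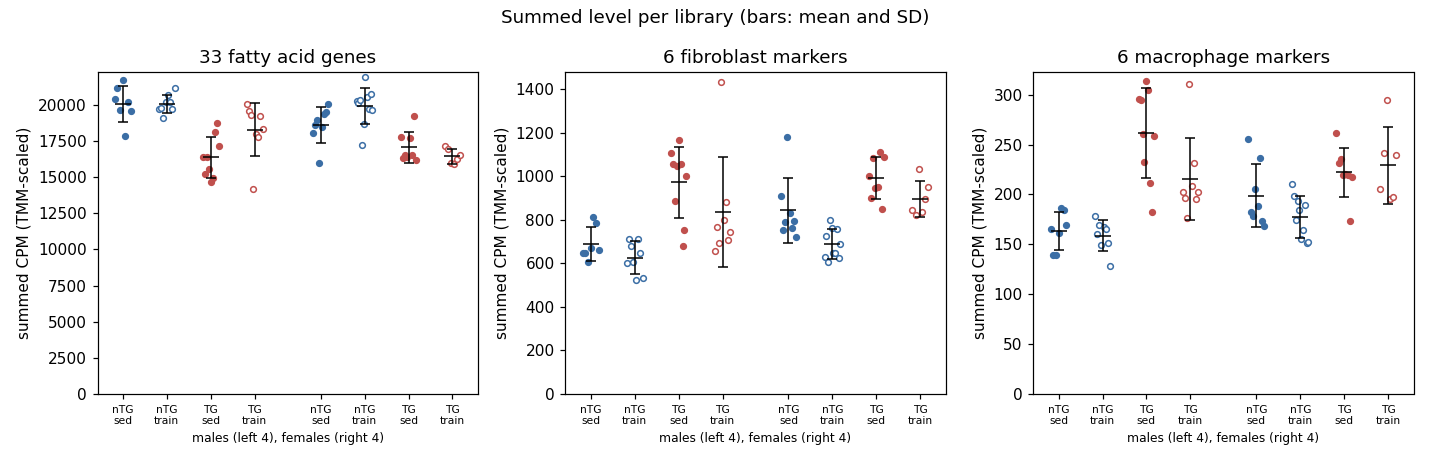
Summed CPM (TMM-scaled, y axes from 0) of the 33 fatty acid genes, 6 fibroblast markers and 6 macrophage markers in each library, by group (blue nTG, red TG, filled sedentary, open trained; bars, mean and SD). The 33 genes sum to 17845 to 21694 CPM in sedentary nTG males and 14647 to 18759 in sedentary TG males; TG trained male replicate 4 is lowest for the fatty acid genes (14167 CPM) and highest for fibroblast markers (1434 CPM).

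The summed level of the 33 genes ran at 17845, 20232 and 21694 CPM in sedentary nTG males and at 14647, 16398 and 18759 in sedentary TG males. Trained males ran at 19121, 19982 and 21167 CPM in nTG and at 14167, 18778 and 20093 in TG. TG trained male replicate 4 held the lowest of these sums, with the other 7 libraries of its group between 17754 and 20093 CPM. It also held the highest macrophage sum of its group. Without it, 9 of 33 genes were called lower in trained TG males. Females ran at 15974, 18756 and 20040.3 CPM in sedentary nTG, 16152, 16540.3 and 19213 in sedentary TG, 17227, 20191 and 21895 in trained nTG, and 15883, 16389 and 17177 in trained TG hearts. All TG sums of trained females lay below all nTG sums, while the other 3 strata overlapped.

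Training was compared next. In TG males 17 of the 33 genes were higher after training, where 10.3% of all genes were, and 0 were lower. The median over the 33 genes was 0.17 against 0.00 over all genes. These were Cd36, Acsl1, Slc25a20, Acadvl, Acadl, Acadm, Hadha, Hadhb, Echs1, Hadh, Acaa2, Acat1, Eci2, Decr1, Etfa, Etfdh and Acot13. Of the roles, 6 of 7 genes of hydration, second oxidation and thiolysis rose, 3 of 4 acyl-CoA dehydrogenases, 2 of 3 flavoprotein genes, 2 of 5 auxiliary enzymes, 1 of 4 uptake genes, 1 of 6 shuttle genes and 0 of 2 lipases (Pnpla2 at -0.04 ± 0.06 and Lipe at 0.04 ± 0.08). Sedentary TG males serve in both this comparison and the sedentary genotype comparison, so that a low value in them lowers the one estimate and raises the other.

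Cd36 (chr5:17781690-17888801, minus strand) had the smallest p for training. Its libraries ran at 591, 701 and 732 CPM in sedentary TG males and at 748, 839 and 906 in trained TG males. Every trained library was above every sedentary one, as for 0.763% of all genes, and Cd36 was the only member of which this held. The difference was 0.31 ± 0.07 (adjusted p = 2.02e-03, edgeR). In nTG males, with 680.4, 818 and 927 CPM sedentary and 731, 851 and 972 trained, it was 0.09 ± 0.07 (adjusted p = 0.936). TG females, at 587, 692 and 885 CPM sedentary and 592, 639 and 804 trained, gave -0.07 ± 0.07. Sedentary and trained nTG females stood at 569, 771 and 805 and at 686, 757 and 813 CPM.

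Acadl and Acadm rose by like amounts in TG males, 0.26 ± 0.06 each (adjusted p = 2.99e-03 and 3.50e-03, edgeR), and Etfa by 0.30 ± 0.07 (adjusted p = 3.75e-03). Etfa ran at 155, 183 and 226 CPM in sedentary and at 165, 243 and 266 in trained TG males. Its nTG males ran at 219.7, 239 and 276 sedentary and 234, 250.5 and 281 trained. Of the 8 trained TG libraries, 6 were above every sedentary one for Acadl and 5 for Acadm and for Etfa. TG trained male replicate 4 went the other way for Acadm, at 554 CPM below every sedentary library, and the rest overlapped. Females had 173, 234 and 245 (nTG sedentary), 214, 229 and 256 (nTG trained), 180.4, 195 and 265 (TG sedentary) and 180.3, 192 and 224 CPM (TG trained) of Etfa.

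The call count in TG males rested on single libraries to some extent. It was 11 without TG trained male replicate 2 or without TG sedentary male replicate 6, and 22 without TG trained male replicate 4. With the groups compared fitted alone it was 10. With plain library totals 12 were called, and over all genes the calls then turned from 1750 higher and 1286 lower to 994 and 1958. Markers of other cells moved here as well. Macrophage markers were lower in trained TG males in 4 of 6 (median -0.33), fibroblast markers in 2 of 6 (median -0.22), blood markers in 6 of 6 (median -1.46) and endothelial markers in 2 of 8 (median -0.16), while 2 of 10 cardiomyocyte markers, Ryr2 and Pln, were higher (median 0.09). Of 4 atrial markers edgeR called 0 (0 at an unadjusted p under 0.05, median 1.10). Summed endothelial markers were 1031 to 1164 CPM in sedentary and 906 to 1089 in trained TG males, summed cardiomyocyte markers 103476 to 123168 and 104519 to 129431, and the other sums are given above. The part of these markers in the rise was not tested. Without 3 libraries singled out earlier for their blood genes (TG sedentary male replicate 5, TG sedentary female replicate 2 and TG trained female replicate 3), 12 were called.

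No member was called for training in the other 3 comparisons. In nTG males edgeR called 0 of 33 (0% of all genes), with 2 at an unadjusted p under 0.05, Acot13 and Acsl1, and 0 by DESeq2 or limma voom. The median there was 0.00. In nTG females edgeR called 0 (0.148% of all genes), 13 had an unadjusted p under 0.05, DESeq2 called 0 and limma voom 1, and the median was 0.11, with 30 of 33 estimates above 0. Pnpla2 had the smallest p of these (0.20 ± 0.06, adjusted p = 0.145, edgeR). In TG females edgeR called 0 (0% of all genes), 2 had an unadjusted p under 0.05, both lower, Lipe (-0.32 ± 0.09, adjusted p = 0.478) and Fabp3, DESeq2 and limma voom called 0, and the median was -0.03.

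Whether training acted differently in TG and nTG males was tested as the genotype by training term. For Acadm it was 0.24 ± 0.09 (95% interval 0.06 to 0.41, adjusted p = 0.215, edgeR), for Acadl 0.22 ± 0.09 (adjusted p = 0.227) and for Cd36 0.23 ± 0.10 (adjusted p = 0.27). Of the blood markers edgeR called 0 of 6 for this term (6 at an unadjusted p under 0.05, median -1.85). Of the macrophage markers it called 0 of 6 (3 at that level, median -0.29). The part of these markers was not tested. Between TG males and TG females, the training by sex term was called for 0 of 33 by edgeR (0% of all genes), with 19 at an unadjusted p under 0.05, 1 by DESeq2 and 12 by limma voom. Cd36 had the smallest p (-0.38 ± 0.10, females minus males, adjusted p = 0.0848). The edgeR count was 10 without TG trained male replicate 4, 3 without TG trained female replicate 6 and 1 without TG sedentary female replicate 4. In the same term edgeR called 0 of 6 blood markers (6 at an unadjusted p under 0.05, median 1.24) and 0 of 6 macrophage markers (3 at an unadjusted p under 0.05, median 0.35), and their part was not tested.

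Between the sexes in sedentary nTG hearts, 30 of 33 estimates were lower in females, with a median of -0.13 on the log2 scale and 13 at an unadjusted p under 0.05. Acadm (-0.26 ± 0.06, adjusted p = 0.0149, edgeR), Hadh (-0.23 ± 0.06) and Acads (-0.20 ± 0.06) were lower in females, 3 of 33 where 1.37% of all genes were, and 0 were higher. On the joined columns the count was 1 with plain library totals or with these groups fitted alone, and 6 by DESeq2. Markers of other cells differed here too, with 2 of 10 cardiomyocyte markers lower in females (median -0.09), 1 of 6 fibroblast markers higher (median 0.30), 1 of 4 adipocyte markers higher (median 1.58) and 0 of 6 macrophage markers called by edgeR (5 at an unadjusted p under 0.05, median 0.30). Their part was not tested.

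Hadha and Hadhb encode the subunits of one protein complex and lie head to head on chromosome 5, with 85 bases between their M21 starts. Their log2 CPM, each minus its group mean, moved together over the 64 libraries (Pearson's r = 0.856, Spearman's rho = 0.793, permutation p = 1e-05 for each, two-sided, the smallest that 100000 permutations within groups can give; 1 relation was tested). Without the 2 libraries farthest from the median of Hadha, r was 0.810. This closeness was not confined to the pair. Ranked by r with Hadha over the same libraries, Hadhb was 11th of 16912 genes, behind Acadvl (0.938), Acaa2 (0.931), Decr1 (0.929) and Acadm (0.925), and 19 of the other 32 members were among the first 100 genes, which are 0.591% of all. These values are a description over libraries that share their scaling.

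**Figure D5:**
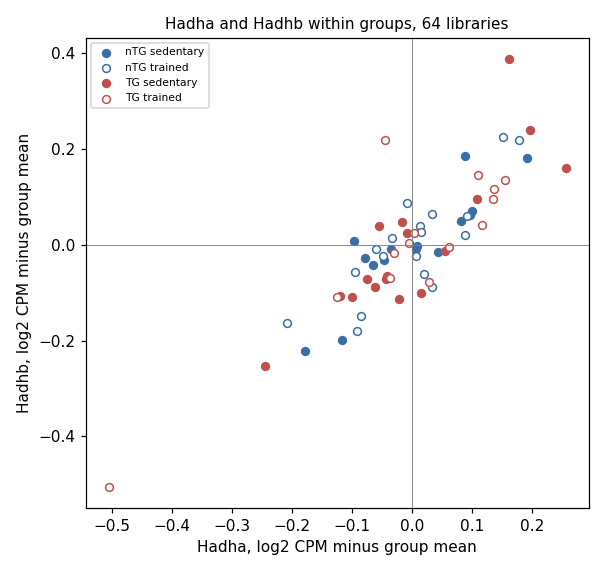
Log2 CPM of Hadhb (y axis) against Hadha (x axis), each minus its group mean, for 64 libraries (blue nTG, red TG, filled sedentary, open trained). Points follow a rising line (r = 0.856), and the point at the lower left is TG trained male replicate 4.

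Other genes of the pathway were read from 7 lists, of which 95 of 99 genes were in the table. In the mean over strata 55 (57.9%) were lower and 8 (8.42%) higher in TG, against 20.5% and 18.5% of all genes; the 2 of 8 lipoprotein genes below lie near that share. Lower were 12 of 15 other mitochondrial dehydrogenase and thioesterase genes, 11 of 15 peroxisomal genes, 10 of 16 genes of triglyceride storage, 6 of 15 other synthetase and carrier genes, 5 of 6 ketone body genes, 2 of 8 lipoprotein genes and 9 of 20 regulators. Higher were 4 synthetase and carrier genes (list median 0.01), 2 lipoprotein genes and 2 regulators. The 5 with the smallest p were all lower. Acad11, an acyl-CoA dehydrogenase family member, fell by 0.47 ± 0.03 (adjusted p = 3.01e-20, edgeR), and Acot7, an acyl-CoA thioesterase, by 0.33 ± 0.03. Dgat2, which makes triglyceride, fell by 0.39 ± 0.03, Sirt3, the mitochondrial deacetylase, by 0.24 ± 0.03 and Mecr, of mitochondrial fatty acid synthesis, by 0.24 ± 0.03.

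Among the 20 regulators, the following were named after their values were seen. In the mean Ppara, the nuclear receptor that drives many of these genes, fell by 0.20 ± 0.04, Esrra by 0.14 ± 0.03 and Ppargc1a by 0.09 ± 0.04, while the 2 that rose were Pparg (0.11 ± 0.04) and Prkaa1 (0.07 ± 0.02). In trained against sedentary TG males 12 of the 95 (12.6%) were higher and 5 (5.26%) lower, near the shares over all genes of 10.3% and 7.6%. Ppara was at 0.08 ± 0.08 and Esrra at -0.03 ± 0.05 there, neither called. The 3 regulators that rose were Prkaa2, a catalytic subunit of AMP-activated kinase (0.20 ± 0.04), Tfam, the mitochondrial transcription factor (0.22 ± 0.05), and Esrrg (0.14 ± 0.05). The 2 that fell were Ppard (-0.21 ± 0.05) and Ppargc1b (-0.29 ± 0.08), and the median of the 20 was 0.01.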

How the data were processed

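Total RNA of hearts was depleted of ribosomal RNA and sequenced, per the labels. The authors deposited counts per gene (16913 Ensembl genes) and estimated counts (expected counts) of 3787 lncRNA transcripts, 45 with fractional values. The submitters' processing notes name GRCm38/mm10, cutadapt 2.3, FastQC 0.11.8, MultiQC 1.7, STAR 2.7.8a and RSEM 1.3.3, without their roles; the annotation is not given in the sources used here.

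Gene columns were joined to lncRNA columns by Pearson's r of centred log2 CPM (pseudocount 0.5, mean of at least 20 counts), and lncRNA values served this match alone. Counts were tested with edgeR 4.0.16 (TMM, filterByExpr, which kept all 16913 genes, quasi-likelihood F test, 1 mean per group, 15 contrasts, Benjamini-Hochberg). CPM are TMM-scaled. SE is the log2 fold change over the square root of F, and correlations used log2 CPM with prior count 2. Symbols and positions came from GENCODE M21 (16887 of 16913 matched). Alternatives used DESeq2 1.42.0, limma 3.58.1, other scalings, filters and sets of libraries. Groups held 6 to 10 libraries by the labels, where the series text gives 7 to 9. The test was also tried on simulated counts, with the outcome not given here. Full values are given for the members with the smallest p (4 for genotype, 4 for training in TG males) and for those of highest and lowest level per kb, and other pathway genes for the 5 smallest p. The members, lists and rules were chosen with earlier results of these data known. Replicate numbers did not pair libraries.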

Additional observations from a re-analysis of the deposited data

Results flagged for a closer look

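For the 13 genes with full values, each of the 8 groups was searched for a library far from the others of its group by Dixon's test, 104 searches in all, of which chance flags about 1 in 20 (5.2 expected). It marked 17. TG trained male replicate 4 accounted for 6 of them, each the lowest of its group: Acadm at 554 CPM (others 757 to 869), Etfdh at 243 (others 321 to 368), Echs1 at 122 (others 160.4 to 176), Hadha at 899 (others 1250.1 to 1421), Etfa at 165 (others 218 to 266) and Eci2 at 65.5 (others 79.9 to 91.4). TG sedentary female replicate 7 was the highest of its group for Etfdh (344 CPM, others 274 to 305), Cd36 (885, others 587 to 723), Acadl (785, others 585 to 671) and Etfa (265, others 180.4 to 199). It had the highest cardiomyocyte marker sum of the 64 libraries (135613 CPM), and TG trained male replicate 4 the highest fibroblast marker sum (1434 CPM). The part of either in these values was not tested.

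Lower than the rest was nTG sedentary female replicate 4, in Cd36 (569 CPM, others 742 to 805) and Eci2 (65.4, others 77.6 to 88.5); it had the highest fibroblast marker sum of nTG libraries (1180.1 CPM), whose part was not tested. Of nTG trained males, replicate 8 was high in Acadm at 1029 CPM (others 901 to 944). Lpl was low in nTG trained female replicate 4 at 3622 CPM (others 4309 to 4793). Lipe was high in nTG sedentary male replicate 4 at 69.5 CPM (others 52.3 to 56.5) and low in nTG sedentary female replicate 2 at 51.1 CPM (others 59.8 to 64.9). Ehhadh was high in TG sedentary female replicate 5 at 10.9 CPM (others 7.93 to 9.10).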

How the results depend on the processing

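The assignment of columns mattered most. With gene columns by name, 0 members were called for genotype in each of the 4 strata and in their mean, 0 for training in TG males and 0 between sexes. Signs then turned in the mean for Acadm (0.00481), Cd36 (0.0341), Acadl (0.00595), Etfa (0.00098), Fabp3 (0.000265), Hsd17b10 (0.00131), Hadh (0.00747), Acads (0.0349) and Acat1 (0.00766). They turned for training in TG males for Cd36 (-0.0679), Acot13 (-0.10), Acadvl (-0.0587), Acsl1 (-0.12), Eci2 (-0.15), Echs1 (-0.0935), Hadha (-0.12), Acadl (-0.016), Etfdh (-0.16), Hadh (-0.18), Decr1 (-0.13), Acat1 (-0.0498), Etfa (-0.0796), Slc25a20 (-0.0974), Acaa2 (-0.14), Hadhb (-0.11) and Acadm (-0.14).

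With plain library totals, 8 members were called lower in trained males, 7 in sedentary females and 1 between sexes, and Cpt2 turned to 0.0093 in the mean. Over all genes this scaling changed the higher and lower calls from 1588 and 1900 to 2525 and 1000 in sedentary males, from 956 and 1405 to 2057 and 748 in trained males, from 268 and 471 to 213 and 606 in sedentary females, from 908 and 1595 to 1843 and 674 in trained females, from 3128 and 3475 to 5174 and 2066 in the mean, from 1750 and 1286 to 994 and 1958 for training in TG males, and from 143 and 232 to 353 and 61 between sexes. limma voom called 10 in sedentary females, 1 for training in nTG females, 3 for genotype by training in males, 12 for training by sex and 5 between sexes. DESeq2 called 1 for training by sex and 6 between sexes. Fits of the groups compared alone called 1 in sedentary females, 10 for training in TG males and 1 between sexes. Same-numbered libraries had r over 0.1 in 13 of 58 pairs (-0.29 to 0.33) and 8 of 58 matched best with their own number. With the replicate number as a block, 6 members were called between sexes, and the block counts for genotype were 30, 15, 4 and 23 in the strata.

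Leaving out 1 library gave 26 to 30 calls in sedentary males, 9 to 15 in trained males, 1 to 7 in sedentary females, 22 to 28 in trained females, 31 to 32 in the mean, 11 to 22 for training in TG males, 0 to 0 for genotype by training in males and 0 to 10 for training by sex. These fits were added after the data were seen. The cause of these shifts between settings was not tested. Of the 3 libraries left out for blood genes, TG trained female replicate 3 had a blood sum of 611 CPM, within the range of other libraries. Depth gave every member at least 314 counts in each library.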

Other observations

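Genes outside the list that followed Hadha most closely within groups, over 64 libraries, were Hsdl2 (r = 0.896), Sdha (0.872), Hrc (0.847), Atp5a1 (0.844), Atp5b (0.842) and Idh3g (0.829), the first 6 that are not members. Sdha, Atp5a1, Atp5b and Idh3g belong to the citric acid cycle and ATP synthase, and Hrc is a calcium-binding protein of the sarcoplasmic reticulum.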
